A study of Mus musculus with 20 samples.

Results

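Histone genes were followed through mouse preimplantation development in 16 libraries of polyadenylated RNA, each made from 10 embryos. Gene symbols with a histone prefix were taken from the annotation used in the files, and pseudogene entries ending in -ps were left out. Of 24411 listed genes, 86 symbols matched. H13, a signal peptide peptidase, and H19, a noncoding RNA, matched the pattern but are no histone genes and were set apart, and 1 entry ended in -ps. The remaining 83 genes were 64 cluster copies, 15 variants, 3 germline-linked cluster genes (Hist1h1t, Hist1h2aa and Hist1h2ba) and H1foo, the oocyte H1. H2afy3, counted among the variants, is a transcribed pseudogene in RefSeq. Hist1h2bq and Hist1h2br have the same counts in all 16 libraries and are counted as separate copies.

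Embryos came from oocytes of superovulated females fertilised in vitro and were cultured in KSOM medium. Zygotes electroporated 3 hours after insemination with a non-targeting siRNA (siControl) or with siRNAs against Pcgf5 (siPcgf5) gave 2 and 2 libraries as late 2-cell embryos, collected at 36 hours, and 2 and 2 as morulae, collected at 72 hours. Pcgf5 encodes a Polycomb repressive complex 1 subunit. The 4-cell libraries (48 hours) were 2 of WT, 3 of Hetero KO and 3 of Homo KO embryos. The KO labels name MT2C_Mm, a retroviral promoter element, at Pcgf5. The 4-cell embryos carry no siRNA in their labels, so stage and electroporation cannot be told apart in any comparison with them. The study asked what a repeat-driven Pcgf5 does to zygotic genome activation.

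A nucleosome wraps DNA around an octamer of the core histones H2A, H2B, H3 and H4, and H1 binds the linker DNA between nucleosomes. Cluster copies are the replication-dependent genes: they are transcribed in S phase, lie in clusters, and their mRNAs normally end in a stem-loop bound by SLBP instead of a poly(A) tail. A library of polyadenylated RNA therefore reads only a polyadenylated or internally primed fraction of them. Variants such as H3.3 and H2A.Z are made from polyadenylated mRNAs throughout the cell cycle and replace the canonical proteins at particular places. In the egg, H1foo stands in for somatic H1 and is replaced after fertilisation.

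The cluster copies were taken by the prefixes Hist1 to Hist4, which go with chromosome, so their positions are only a description. Their upstream sequences held some motifs more often than all windows did. Chromosome 13 holds 51 of the 64 cluster copies and the 3 germline-linked genes. Chromosome 3 holds 10 cluster copies, chromosome 11 holds 2 and chromosome 6 holds 1. The variants are scattered, with 3 on chromosome 15 and at most 2 on any other chromosome. RefSeq promoter windows of build GRCm38.p6 were found for 76 of the 83 genes. In the 250 bases upstream of the start, CCAAT (on either strand) stood in 48 of 59 cluster copies with a window, 81.4%, against 33.8% of all 32851 windows. TATAA stood in 64.4% of the cluster copies against 22.8% of all windows. The octamer ATTTGCAT stood in 20.3% of the cluster copies against 1.6% of all windows. GGGCGG, a GC box, stood in 32.2% of the cluster copies against 32.7% of all windows. Both strands were searched, and a base could count toward more than 1 motif. All 17 H2A and all 15 H2B copies with a window held CCAAT, against 3 of 12 H4 copies. GGGCGG went the other way, with 9 of 12 H4 copies and 0 of 15 H2B copies. Of 13 variants with a window, 7 held CCAAT and 2 held TATAA.

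The upstream sequences of 6 genes that the levels below turn on are given for the 200 bases before the RefSeq start, 5′ to 3′ on the strand of the gene. Capitals mark CCAAT and TATAA, each on either strand. They are the 3 H2A copies with the most RNA (Hist1h2ap, Hist1h2ao and Hist1h2ad), the variants H2afj and H3f3b, and H1foo. Hist1h2ap is at chr13:21833476-21833675 on the minus strand, Hist1h2ao at chr13:21810167-21810366 on the plus strand and Hist1h2ad at chr13:23574181-23574380 on the plus strand. H2afj is at chr6:136808048-136808247 and H1foo at chr6:115944731-115944930, both on the plus strand, and H3f3b at chr11:116024505-116024704 on the minus strand.
Hist1h2ap: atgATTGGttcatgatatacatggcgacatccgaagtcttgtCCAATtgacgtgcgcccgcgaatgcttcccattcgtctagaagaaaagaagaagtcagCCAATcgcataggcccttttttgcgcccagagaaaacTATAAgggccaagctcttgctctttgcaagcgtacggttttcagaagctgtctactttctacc
Hist1h2ao: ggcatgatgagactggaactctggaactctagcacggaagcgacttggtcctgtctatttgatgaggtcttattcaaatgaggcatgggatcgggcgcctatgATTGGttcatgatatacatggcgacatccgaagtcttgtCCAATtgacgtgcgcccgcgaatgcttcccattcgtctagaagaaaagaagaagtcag
Hist1h2ad: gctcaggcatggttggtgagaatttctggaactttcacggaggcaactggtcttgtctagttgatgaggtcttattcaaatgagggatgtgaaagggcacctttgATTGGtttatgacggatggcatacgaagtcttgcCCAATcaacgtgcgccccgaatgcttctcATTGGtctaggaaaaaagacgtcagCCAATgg
H2afj: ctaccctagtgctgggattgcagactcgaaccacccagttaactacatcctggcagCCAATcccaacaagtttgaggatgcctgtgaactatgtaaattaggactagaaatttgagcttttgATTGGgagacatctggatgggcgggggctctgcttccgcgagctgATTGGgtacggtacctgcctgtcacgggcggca
H3f3b: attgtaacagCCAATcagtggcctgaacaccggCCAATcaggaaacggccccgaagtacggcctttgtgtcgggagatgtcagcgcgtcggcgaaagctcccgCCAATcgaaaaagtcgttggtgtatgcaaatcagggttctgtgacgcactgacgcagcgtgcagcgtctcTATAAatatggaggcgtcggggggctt
H1foo: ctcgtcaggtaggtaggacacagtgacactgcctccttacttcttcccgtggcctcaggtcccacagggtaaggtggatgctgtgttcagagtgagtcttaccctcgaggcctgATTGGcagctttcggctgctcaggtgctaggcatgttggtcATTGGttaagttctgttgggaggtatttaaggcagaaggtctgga

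Hist1h2ap and Hist1h2ao carry the same upstream sequence. Over the 150 bases in which their 250-base windows overlap when slid by 100 bases, 150 of 150 match. TATAA begins 63 bases before the start of Hist1h2ap and is not in the printed Hist1h2ao stretch. Hist1h2ad shares a run of 40 identical bases with Hist1h2ao, and its printed stretch holds CCAAT 4 times, counting both strands. H2afj holds CCAAT 3 times, counting both strands. H1foo has 2 CCAAT on the opposite strand and no TATAA, and H3f3b has 3 CCAAT and 1 TATAA. A match is a description of letters in these windows, not of bound factors.

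Nothing in the labels says that libraries of a group came from separate cultures, so p-values measure only the spread between these libraries. The libraries held between 14310634 and 55620137 summed expected counts, and the 8 at the 4-cell stage were the shallowest, at most 17871206. Pcgf5, the targeted gene, stood at 397 and 931 TPM (transcript abundance scaled for length and library size, so comparable between genes) in siControl and 59.1 and 103 TPM in siPcgf5 at the late 2-cell stage, and at 146 and 99.3 against 24.3 and 19.3 TPM in morulae. At the 4-cell stage its level was 339 and 254 TPM in WT, 248 to 331 in Hetero KO and 158 to 199 in Homo KO. None of these differences passed the adjusted test over all genes (edgeR quasi-likelihood test with Benjamini-Hochberg adjustment, smallest adjusted p = 0.0789). The siControl late 2-cell replicate 1 stands apart: Lyz2, a leukocyte gene, was at 611 TPM there and between 2.3 and 5.87 TPM in the other 3 late 2-cell libraries. The oocyte genes Bmp15 and Gdf9 were at 430 and 120 TPM there against at most 217 and 65.2, while the oocyte gene Zp3 was lowest there at 82 TPM. The late 2-cell genes summed to 1748 to 3106 TPM in late 2-cell libraries, 23.4 to 425 TPM at the 4-cell stage and 6.56 to 19.4 TPM in morulae. The list of morula and trophectoderm genes did not follow its name: its sum was 950 to 1342 TPM in late 2-cell libraries and 656 to 721 TPM in morulae, mostly of Dppa4, although Cdx2 was at 0.9 to 1.53 TPM in morulae and at most 0.06 TPM elsewhere. Markers of other cells were highest in late 2-cell libraries. Blood and immune markers summed to 1087 to 1778 TPM there, 68.1 to 319 TPM at the 4-cell stage and 45.2 to 91.7 TPM in morulae, mostly of the globin gene Hba-a2, while Hbb-bs and Hbb-bt were at 0 in all 16. Cumulus and granulosa markers summed to 23.8 to 39.9, 1.28 to 14.1 and 0.14 to 0.97 TPM at the 3 stages, at the late 2-cell stage mostly of Tnfaip6, while Amh and Col3a1 were at 0 in all 16. Their part in the stage differences of histone genes was not tested.

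Of the 83 genes, 4 were at 0 in every library and 11 stayed under 10 counts in every library. A mean of at least 1 TPM was reached by 42 and of at least 100 TPM by 6. RNA of the family came mostly from 3 variants that code for H2A.Z and H3.3. H2afz, the main H2A.Z gene, averaged 3708 TPM over the 16 libraries, H3f3a 2902 TPM and H3f3b 2247 TPM. Together they made up 67.2 to 90.6% of the summed TPM of all histone genes. All histone genes together took 0.855 to 1.23% of a library's TPM.

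The summed TPM of the cluster copies was higher at each later stage, and that of the variants was lowest in morulae on the TPM scale only. In TMM-scaled CPM the siControl means of the 3 leading variants were higher in morulae than in late 2-cell embryos: 2698 against 2305 CPM for H2afz, 2943 against 1641 CPM for H3f3a and 2938 against 2647 CPM for H3f3b. Cluster copies summed to 764 and 550 TPM in the siControl late 2-cell libraries and to 712 and 587 in siPcgf5. The WT 4-cell libraries held 1582 and 1024 TPM, Hetero KO 1073, 778 and 1340, and Homo KO 1135, 1220 and 1204. The siControl morulae held 2144 and 1609 TPM and the siPcgf5 morulae 2275 and 2588. No late 2-cell library reached the lowest 4-cell library and no 4-cell library reached the lowest morula library. Variants summed to 8345 to 11430 TPM in late 2-cell libraries, 9322 to 10894 TPM at the 4-cell stage and 6717 to 7408 TPM in morulae. The share of cluster copies in the histone TPM thus ran from 4.57 to 8.16% at the late 2-cell stage, from 7 to 12.9% at the 4-cell stage and from 18.8 to 25.9% in morulae. These sums are descriptions with no test. In libraries of whole embryos, a larger share of cells of a type and more of the RNA per cell cannot be told apart.

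**Figure D1:**
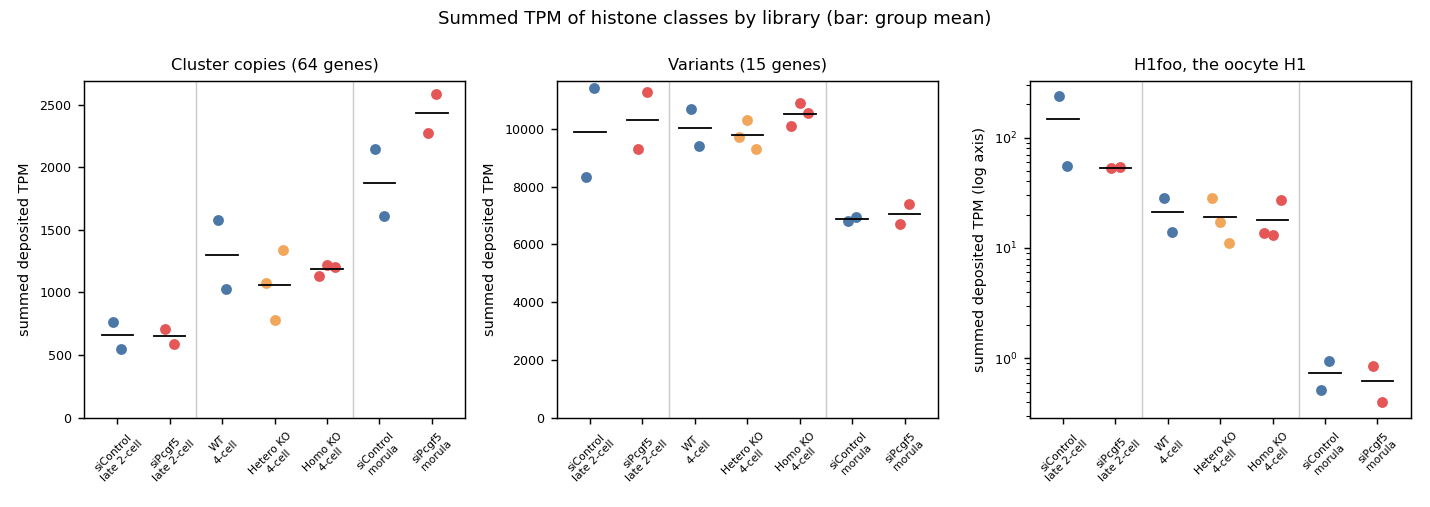
Summed deposited TPM (y axis, linear for cluster copies and variants, log for H1foo) of each histone class in the 16 libraries, by group (x axis). Points are libraries, bars are group means, blue marks controls, red siPcgf5 or Homo KO and orange Hetero KO. The cluster copies lie between 550 and 764 TPM at the late 2-cell stage and between 1609 and 2588 TPM in morulae, where H1foo is at most 0.94 TPM.

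H1foo, the linker histone of the egg, fell through the stages. It stood at 236 and 55.3 TPM in the siControl late 2-cell libraries and at 52.5 and 54.5 TPM in siPcgf5. The 8 libraries at the 4-cell stage ranged from 11.2 to 28.3 TPM with a median of 15.6 TPM. All 4 morula libraries lay between 0.4 and 0.94 TPM. The stages do not overlap. From siControl late 2-cell to siControl morula the log2 fold change was -6.57 (SE 0.70, adjusted p = 3.411e-05, edgeR), and from WT 4-cell to siControl morula it was -4.13 (SE 0.66, adjusted p = 0.0002221, edgeR). These 2 calls held under every alternative run. The step from siControl late 2-cell to WT 4-cell was -2.45 (SE 0.60, adjusted p = 0.005415, edgeR), but leaving out libraries took it to between -3.17 and -1.19, and it no longer passed once siControl late 2-cell replicate 1 or WT 4-cell replicate 2 was left out. Replicate 1 also had the most Bmp15 and Gdf9 of the late 2-cell libraries (values above), and the most Zp2, Mos, Oosp1 and Omt2b. Zp1 and Zp3 did not follow. Zp1 was at 13.1 TPM there against 19.6 TPM in siPcgf5 replicate 2. Zp3 was at 82 TPM there and at 87.2 to 128 TPM in the other late 2-cell libraries. The part of oocyte mRNAs in the H1foo level of replicate 1 was not tested. Npm2, the egg chaperone that remodels sperm chromatin, fell alongside, by 4.67 on the log2 scale from late 2-cell to morula (SE 0.33, adjusted p = 2.147e-06, edgeR).

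The germline-linked genes were low throughout. Hist1h2ba, a germline-linked H2B, was at 12 and 3.39 TPM in the siControl late 2-cell libraries, 1.57 and 4.26 TPM in siPcgf5, and at most 1.12 TPM in morulae. Hist1h2aa, a germline-linked H2A, was at 8.86 and 3.35 TPM and 3.45 and 6.12 TPM in the same late 2-cell groups, and between 0.39 and 0.93 TPM in morulae. Hist1h2ba was called lower in siControl morula than in siControl late 2-cell (log2 -6.08, SE 2.28, adjusted p = 0.044, edgeR), a call lost without any of 5 of the 8 libraries and with the replicate block (adjusted p = 0.05691). Summed sperm markers were higher in the same libraries: their summed TPM was 52.9 to 77.9 at the late 2-cell stage, 4.97 to 10.4 at the 4-cell stage and 1.97 to 3.83 in morulae, and Akap4 was at 0 in 15 of the 16. The late 2-cell sums were mostly of Tnp1, at 36.7 to 62.2 TPM. Prm1 overlapped between stages, at 0.6 to 4.03 TPM in late 2-cell and 0.36 to 3 TPM in 4-cell libraries. Hist1h2ba and Hist1h2aa were both highest in siControl late 2-cell replicate 1, where Bmp15 and Gdf9 were highest too (values above). Zp1 and Zp3 were not highest there. Of the sperm markers Prm1 was highest there, at 4.03 TPM. Tnp1 was at 41.2 TPM there and at 57.2 and 62.2 TPM in replicate 2 of siControl and siPcgf5. The part of sperm markers or of oocyte mRNAs in the Hist1h2ba level was not tested. H2afb1, a short H2A variant whose accession RefSeq names H2al2a, followed the same order, with 2.77 to 9.35 TPM in late 2-cell libraries, at most 1.49 TPM at the 4-cell stage and at most 0.24 TPM in morulae.

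Most RNA of the cluster copies was of H2A, and most of that of 2 genes. H2A copies made up 63.3 to 81.6% of the cluster TPM at the late 2-cell stage, 89.8 to 94.6% at the 4-cell stage and 94.8 to 96.1% in morulae. Hist1h2ap stood at 275, 242, 344 and 249 TPM in the 4 late 2-cell libraries, siControl first. It ranged from 489 to 902 TPM with a median of 672 TPM at the 4-cell stage. In morulae it reached 1173 and 874 TPM in siControl and 1311 and 1415 TPM in siPcgf5. Hist1h2ao ran in parallel at 110 to 163 TPM, 222 to 515 TPM and 441 to 667 TPM at the 3 stages. The ratio of Hist1h2ap to Hist1h2ao stayed between 1.53 and 2.36 in the 16 libraries. The pair are near copies with the same upstream sequence, so the reads of each cannot be fully separated and the split between them is uncertain.

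Both genes were called higher at each step of the stage series. Hist1h2ap rose by 1.89 on the log2 scale from siControl late 2-cell to WT 4-cell (SE 0.28, adjusted p = 0.0001022, edgeR) and by a further 1.20 to siControl morula (SE 0.27, adjusted p = 0.003112, edgeR). Over the whole interval it rose by 3.09 (SE 0.26, adjusted p = 5.427e-06, edgeR), a call that held in every alternative run. Hist1h2ao rose by 2.02 and 1.09 over the same steps and by 3.12 over the interval (SE 0.26, adjusted p = 5.427e-06, edgeR). The second step was lost for both genes on log2(TPM + 1) with limma, where it was 0.40 for Hist1h2ap and 0.36 for Hist1h2ao. For Hist1h2ao it was lost as well without siControl morula replicate 1 or WT 4-cell replicate 2, with fold changes of 0.82 to 1.49 over the libraries left out.

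Hist1h2ad, another H2A copy, did not follow them. Its deposited values were 15.6 and 41.4 TPM in siControl and 32 and 14.3 TPM in siPcgf5 at the late 2-cell stage, and 242, 150, 264 and 291 TPM in the morula libraries. At the 4-cell stage it was listed at 0 in 6 of 8 libraries and at 0.33 and 0.32 TPM in the other 2, which is 1.31 and 1.32 expected counts. With a floor of 3 counts over a group, WT 4-cell was at least 65.3-fold lower than siControl late 2-cell, and siControl morula at least 939-fold higher than WT 4-cell. Hist1h2ah, named after its values were seen, had the same gap at the 4-cell stage, with at most 0.35 TPM there and 11.3 to 47 TPM in morulae. Both have near copies among the H2A genes. The 4-cell files have a median fragment offset (gene length minus effective length) of 215 to 234 bases against 192 to 226 bases in the others, and the part of fragment length, or of how reads were split between copies, was not tested. With Hist1h2ad and Hist1h2ah added to Hist1h2ao and Hist1h2ap, the summed TPM was 391 to 548 at the late 2-cell stage, 712 to 1417 at the 4-cell stage and 1503 to 2421 in morulae.

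**Figure D2:**
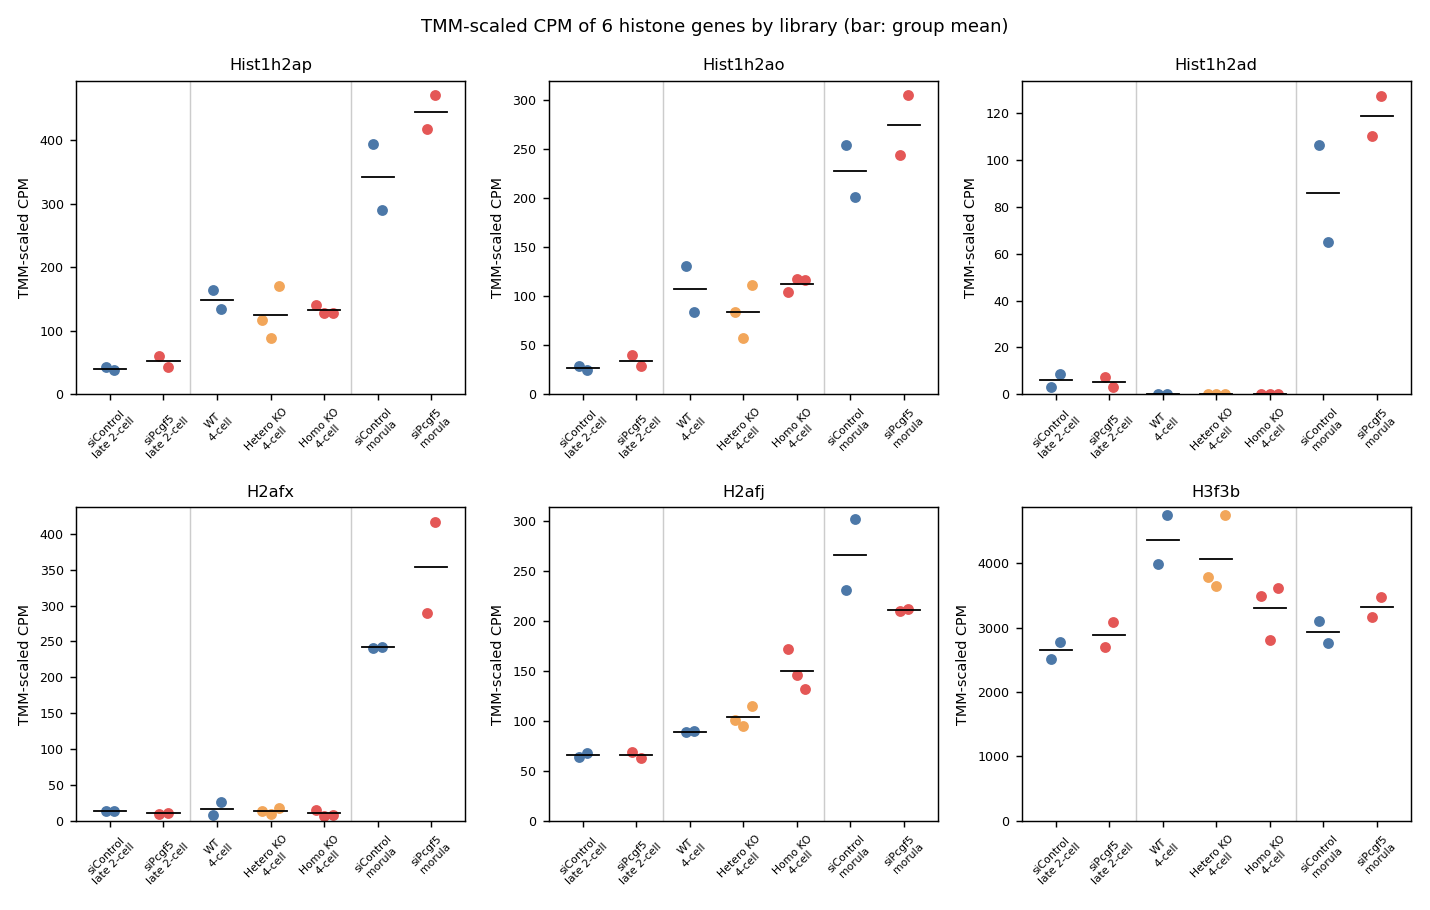
TMM-scaled CPM (y axis, from 0) of 3 H2A copies and 3 variants in the 16 libraries, by group (x axis). Points are libraries and bars are group means. Hist1h2ap and Hist1h2ao are higher at each later stage, Hist1h2ad is at or near 0 in all 8 libraries at the 4-cell stage, and H2afx is highest in the 4 morula libraries.

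The other families had little RNA, and their single copies had no common direction. H2B copies summed to 8.82 to 84.4 TPM over the 16 libraries, H3 copies to 2.63 to 23.1 TPM, H4 copies to 29.2 to 158 TPM and H1 copies to 4.41 to 21.7 TPM. On the TPM scale each of these sums was lower in both siControl morula libraries than in both siControl late 2-cell libraries. On that scale the higher cluster sum of siControl morulae was thus of H2A copies. The order of the sums does not carry over to TMM-scaled CPM. Hist1h2bc, the H2B copy with the highest mean TPM, overlapped there, at 8.97 and 6.01 CPM in siControl late 2-cell and 10 and 4.83 CPM in siControl morula. Median edgeR log2 fold changes between these groups were -0.007 for H2B, -0.54 for H3, -0.69 for H4 and 2.25 for H1 copies. From siControl late 2-cell to siControl morula, 0 of 13 tested H2B copies passed the adjusted edgeR test in either direction, with 2 at an unadjusted p below 0.05. DESeq2 called 1 higher and 1 lower, and limma 1 higher and 3 lower. In the same comparison 52.9% of all genes passed the adjusted edgeR test, and 59.1% had an unadjusted p below 0.05. Of all 16980 genes, DESeq2 called 4054 higher and 5540 lower, and limma 2474 higher and 7431 lower. Among H4 copies the direction was mixed. Hist1h4c was at 56.7, 26.4, 18.7 and 38.2 TPM in the late 2-cell libraries and at 1.07 to 2.28 TPM in morulae, a log2 fold change of -3.51 between the siControl groups (SE 0.80, adjusted p = 0.003678, edgeR) that held in every alternative run. Hist1h4d went up, from 8.95 to 22.5 TPM at the late 2-cell stage to 27.6 to 34.6 TPM in morulae (log2 2.08, SE 0.56, adjusted p = 0.009902, edgeR), and its adjusted p was 0.05008 without siControl late 2-cell replicate 2. Hist4h4, an H4 gene outside the large clusters, was at 35.6 TPM in siControl late 2-cell replicate 1, at 3.79, 11.46 and 11.43 TPM in the other 3 and at most 0.89 TPM in morulae. Its log2 fold change of -3.47 became -1.11 without that replicate, and the call was lost there and without either siControl morula library.

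Linker H1 copies differed in direction between the stages. Hist1h1a was at 12.3, 17.5, 3.63 and 12.7 TPM in late 2-cell libraries and at 0.84 to 1.75 TPM in morulae. Hist1h1b was at 0.78 to 1.7 TPM at the late 2-cell stage, 2.38 to 7.86 TPM at the 4-cell stage and 1.84 to 4.82 TPM in morulae. Hist1h1e was at 0 to 0.63 TPM, 0.27 to 4.75 TPM and 1 to 1.95 TPM. Between siControl late 2-cell and siControl morula the edgeR log2 fold changes were -2.48 for Hist1h1a (SE 0.77, adjusted p = 0.02011), 2.25 for Hist1h1b (SE 0.82, adjusted p = 0.04036) and 4.48 for Hist1h1e (SE 1.67, adjusted p = 0.04377). Without siControl late 2-cell replicate 2 or siControl morula replicate 2 the Hist1h1a call was lost. The Hist1h1b and Hist1h1e calls were lost without 6 and 5 of the 8 libraries. Hist1h1b did not pass with the replicate block either (adjusted p = 0.05547), nor with DESeq2 size factors (0.056), no filter on low counts (0.05585), limma on log2(TPM + 1) (0.08869) or only the groups compared (0.07823), and Hist1h1e did not with DESeq2 size factors (adjusted p = 0.05196). The somatic variant H1f0 stood at 20.5 to 30.4, 7.14 to 17.6 and 25.8 to 36.2 TPM at the 3 stages, so that its 4-cell libraries were below all others. From WT 4-cell to siControl morula it rose by 1.92 on the log2 scale (SE 0.31, adjusted p = 0.0001851, edgeR), a call kept in every alternative run. Its difference between siControl late 2-cell and siControl morula turned with the scale, from 0.98 (adjusted p = 0.004922, edgeR) to -0.037 on log2(TPM + 1) with limma.

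Among the H2A variants, H2afx, H2afj and H2afy rose to the morula. H2afx, whose protein is phosphorylated at DNA breaks, was at 19.1, 17.5, 12.1 and 14.4 TPM in the late 2-cell libraries and at 7.03 to 24.8 TPM at the 4-cell stage. It reached 161 and 163 TPM in siControl morulae and 201 and 279 TPM in siPcgf5 morulae. The log2 fold change between the siControl groups was 4.17 (SE 0.26, adjusted p = 1.269e-06, edgeR), and from WT 4-cell it was 3.86 (SE 0.49, adjusted p = 4.161e-05, edgeR). H2afj was at 57.6 to 65 TPM at the late 2-cell stage and 102 to 145 TPM in morulae, with a log2 fold change of 2.02 (SE 0.22, adjusted p = 2.493e-05, edgeR). H2afy, the gene of macroH2A1, went from 0.6 to 1.96 TPM at the late 2-cell stage to 6.27 to 11.3 TPM in morulae (log2 4.10, SE 0.62, adjusted p = 0.0002648, edgeR). These differences between the siControl groups held in every alternative run.

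H2A.Z and H3.3 were the most abundant at every stage, and their direction depended on the scale. H2afz ranged from 3390 to 4930 TPM at the late 2-cell stage, from 3075 to 5721 TPM at the 4-cell stage and from 2012 to 2471 TPM in morulae, where all 4 libraries lay below all others. H3f3b ranged from 2158 to 2587, from 1919 to 3033 and from 1209 to 1514 TPM, again lowest in morulae. On log2(TPM + 1) with limma, siControl morula was below siControl late 2-cell by -0.76 for H2afz (adjusted p = 0.01912), by -0.86 for H3f3b (adjusted p = 0.002674) and by -0.62 for H2afv, the second H2A.Z gene (adjusted p = 0.01481). With TMM scaling in edgeR the same differences were 0.23, 0.16 and 0.38 and none passed. TMM set the scaling factors at 1.187 to 1.295 for late 2-cell and 0.787 to 0.809 for morula libraries. The median of all genes shifted by -0.34 with TMM and by -0.50 on log2(TPM + 1). H3f3a was called higher with TMM (log2 0.85, SE 0.28, adjusted p = 0.02454, edgeR) and was -0.12 on log2(TPM + 1). That call was lost without either siControl morula library, with DESeq2 size factors (adjusted p = 0.05792) and with only the groups compared (adjusted p = 0.08903).

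Shares within a library do not depend on that scaling. H3f3a gave 48.9 to 61.2% of the H3.3 TPM (H3f3a plus H3f3b) at the late 2-cell stage, 46.2 to 59.7% at the 4-cell stage and 64.8 to 68.8% in morulae. Every morula library was above every other library. H2afv gave 7.59 to 8.69%, 4.59 to 7.64% and 8.62 to 11.8% of the H2A.Z TPM at the 3 stages. H3f3b differed in opposite directions over the 2 steps, with 0.72 on the log2 scale from siControl late 2-cell to WT 4-cell (SE 0.19, adjusted p = 0.009109, edgeR) and -0.57 from there to siControl morula (SE 0.19, adjusted p = 0.03356, edgeR). The first step did not pass on log2(TPM + 1) with limma (0.37, adjusted p = 0.06731), in a fit of only the groups compared (adjusted p = 0.2008), or with siControl late 2-cell replicate 1 or WT 4-cell replicate 2 left out. The second did not pass with no filter on low counts (adjusted p = 0.05449) or without any of 8 of the 16 libraries.

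**Figure D3:**
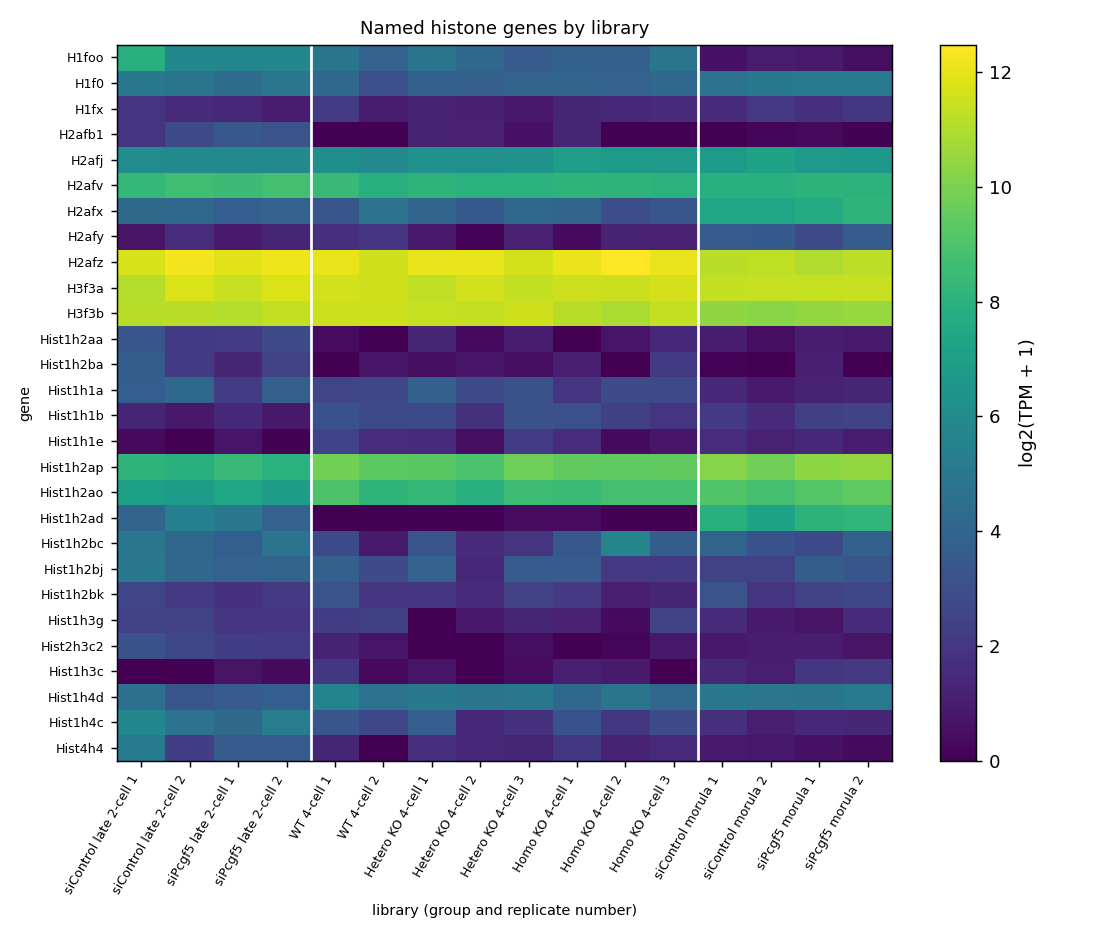
Log2(TPM + 1) (colour) of the 28 named histone genes (rows) in the 16 libraries (columns), with white lines between late 2-cell, 4-cell and morula libraries. H2afz, H3f3a and H3f3b are bright throughout, H1foo fades to under 1 TPM in morulae, and Hist1h2ad is dark at the 4-cell stage.

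Counted over the family, 21 of 63 tested histone genes differed between siControl late 2-cell and siControl morula, 14 higher and 7 lower in morulae. Over all 16980 genes 24.9% were higher and 28.1% lower, and the median log2 fold change of the histone genes was 0.98 against -0.34. Counts of the cluster copies were 9 higher and 4 lower of 49 tested, and of the variants 5 higher and 1 lower of 11. H2A copies were 5 higher and 1 lower of 15, with 14 of 15 fold changes above 0 (13 of 15 on log2(TPM + 1)). The balance depends on the scale: limma on log2(TPM + 1) called 14 higher and 19 lower of the 63, and 2474 higher and 7431 lower of all genes, against 4220 and 4766 with edgeR. Without siControl morula replicate 1 the count of 21 fell to 12.

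Between siControl late 2-cell and WT 4-cell, 7 of 54 tested histone genes were higher and 8 lower, while 17.5% of all genes were higher and 15.2% lower. The median was -0.25 against -0.33 for all genes. Limma on log2(TPM + 1) called 8 higher and 17 lower of the 54, and 2389 higher and 5229 lower of all genes. Their number fell from 15 to 5 without siControl late 2-cell replicate 1 and to 5 without WT 4-cell replicate 2, and to 9 and 8 without the other replicate of each group. Between WT 4-cell and siControl morula, 10 of 54 were higher and 2 lower, while 14.9% of all genes were higher and 15.3% lower, with medians of 1.05 and 0. Limma on log2(TPM + 1) called 11 higher and 5 lower of the 54, and 1673 higher and 3591 lower of all genes. The 12 edgeR calls became 7 without siControl morula replicate 1. In this last step all 6 called cluster copies were H2A, and H1foo and H3f3b were the 2 that fell. The 3 stage comparisons share their control libraries. Counts with 1 library left out, here and for the whole interval above, stand without the counts over all genes in those runs. They do not tell a loss among histone genes from a loss over all genes.

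**Figure D4:**
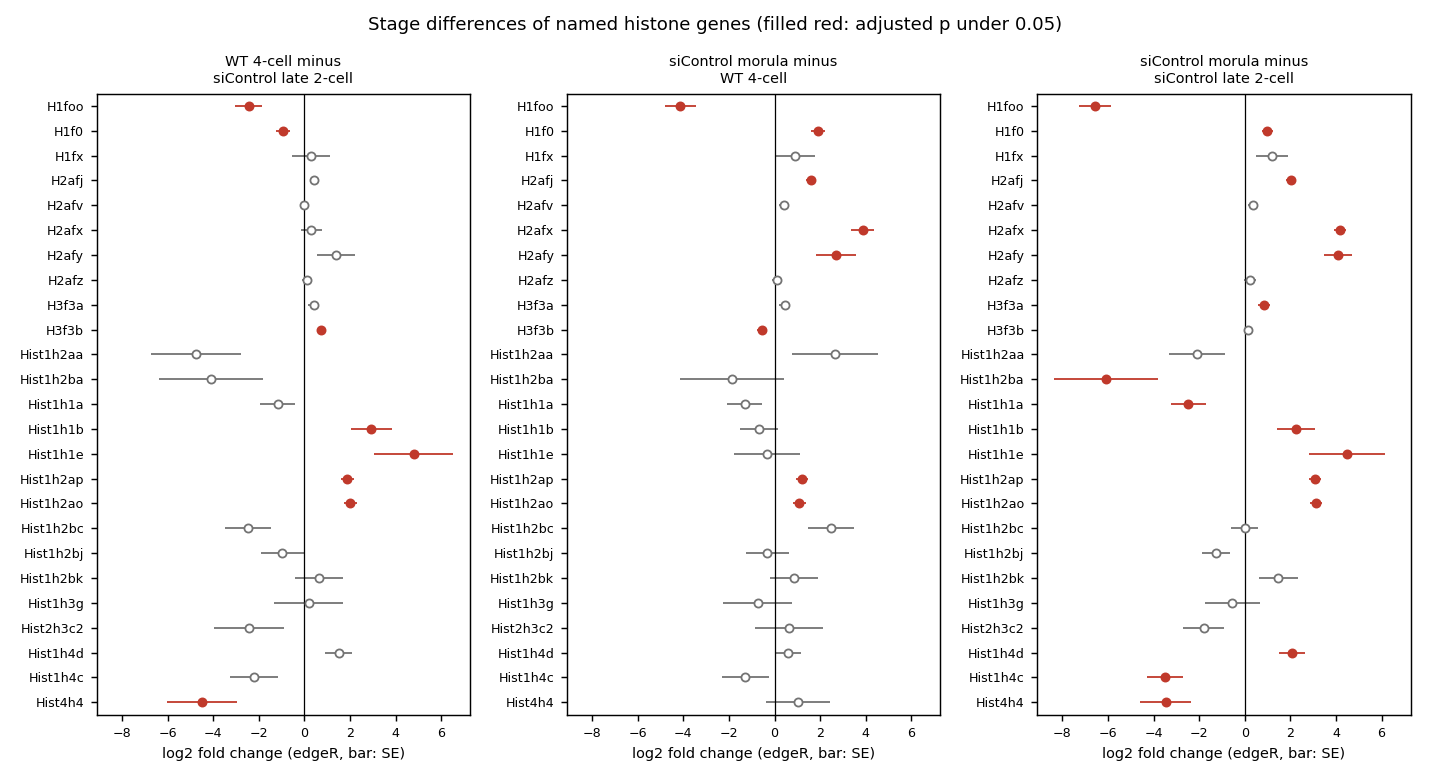
Log2 fold changes (x axis, edgeR, bars are SE) of 25 named histone genes (rows) in the 3 stage comparisons (panels). Filled red points have an adjusted p under 0.05 and open grey points do not. H1foo lies left of 0 in every panel and Hist1h2ap and Hist1h2ao right of 0, while Hist1h2ad, Hist1h3c and H2afb1 are left out because a group is at 0.

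Genes that supply histones or process their mRNA were read beside them, from lists that are not independent of earlier results of these data. Of 20 measured genes for 3′ processing of cluster mRNAs, 8 were higher and 6 lower in siControl morula than in siControl late 2-cell by edgeR, and 4 higher and 10 lower by limma on log2(TPM + 1). Over all genes edgeR called 24.9% higher and 28.1% lower, and limma called 2474 higher and 7431 lower of 16980. Slbp, which binds the stem-loop, was at 806 and 699 CPM in siControl late 2-cell and at 469 and 489 CPM in siControl morula, a log2 fold change of -0.64 (SE 0.20, adjusted p = 0.01964, edgeR) that was lost without either siControl morula library. Npat, the coactivator of cluster genes in S phase, was -0.90 (SE 0.28, adjusted p = 0.0179) over the interval in edgeR, and Casp8ap2, its partner in histone locus bodies, -0.95 (SE 0.21, adjusted p = 0.002921). Lsm10, part of the U7 particle that cleaves the histone pre-mRNA, was -2.55 (SE 0.23, adjusted p = 7.893e-06, edgeR). Lsm11 was not called (log2 1.58, adjusted p = 0.07098, edgeR), though it was with no filter on low counts (adjusted p = 0.03256). Between WT 4-cell and siControl morula, Npat was -1.69 (SE 0.27, adjusted p = 0.0002045) and Casp8ap2 -2.19 (SE 0.19, adjusted p = 1.273e-06) in edgeR. The Npat difference over the whole interval did not pass with siControl late 2-cell replicate 2 or either siControl morula library left out.

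Chaperones that carry histones to DNA were called in both directions, in proportions that depended on the scale. Of 36 measured chaperone and deposition genes, 17 were higher and 6 lower in siControl morula than in siControl late 2-cell by edgeR, against 11 and 16 by limma on log2(TPM + 1). The shares over all genes in the same comparison were 24.9% higher and 28.1% lower by edgeR. Limma on log2(TPM + 1) called 2474 higher and 7431 lower of all 16980 genes. The H3-H4 chaperone pair Asf1a and Asf1b moved apart, at 1.40 (SE 0.20, adjusted p = 0.0002227) and -0.95 (SE 0.25, adjusted p = 0.008542) on the log2 scale in edgeR. The Asf1a difference was 0.37 and not called on log2(TPM + 1), and the Asf1b call was lost without siControl morula replicate 2. Chaf1b, a subunit of the replication-coupled CAF-1 complex, was higher in morulae (log2 1.83, SE 0.31, adjusted p = 0.0005573, edgeR), and Chaf1a, its large subunit, was not called (-0.05, SE 0.38, adjusted p = 0.9227, edgeR). Hira, which deposits H3.3 outside replication, was -0.56 (SE 0.38, adjusted p = 0.2364), Nasp, an H3-H4 and H1 carrier, -0.10 (SE 0.31, adjusted p = 0.7951), and Cenpa, the centromeric H3, -0.35 (SE 0.23, adjusted p = 0.2221), none of them called in edgeR. Of 24 S phase genes, 14 were higher and 3 lower by edgeR, and 8 higher and 9 lower by limma on log2(TPM + 1). Beside them stand the shares over all genes by edgeR and the counts over all genes by limma given above for the chaperones.

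Knockdown of Pcgf5 left no histone gene past the test at either stage. At the late 2-cell stage 0 of 63 tested genes passed the adjusted edgeR test, where 0.0118% of all genes did. An unadjusted p below 0.05 was reached by 2 of 63, 3.17%, against 5.58% of all genes. In morulae 0 of 63 passed, as did 0% of all genes, and 1 of 63, or 1.59%, had an unadjusted p below 0.05 against 4.22%. DESeq2 and limma called 0 histone genes at either stage. Of all 16980 genes, DESeq2 called 27 higher and 45 lower at the late 2-cell stage and 5 higher and 18 lower in morulae. Limma called 10 higher and 8 lower at the late 2-cell stage and 0 in morulae. The median log2 fold changes of the histone genes were -0.15 and 0.11 at the late 2-cell and morula stages, against -0.01 and -0.01 for all genes.

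H1foo had a log2 fold change of -1.28 in siPcgf5 late 2-cell embryos (SE 0.55, adjusted p = 0.8864, edgeR). That value rests on the 236 TPM of siControl late 2-cell replicate 1 and was 0.042 without it. Hist1h2an, an H2A copy named after its values were seen, had 2.23 (SE 0.80, adjusted p = 0.8075, edgeR), from 2.19 and 1.97 TPM in siControl and 14.4 and 3.37 TPM in siPcgf5. Hist1h2ap and Hist1h2ao were at 0.37 (SE 0.24) and 0.38 (SE 0.24) at the late 2-cell stage and at 0.37 (SE 0.24) and 0.26 (SE 0.24) in morulae on the edgeR log2 scale, with adjusted p of 0.971 or more. In morulae H2afx stood at 241 and 242 CPM (counts scaled for library size with TMM, not for length) in siControl and at 290 and 416 CPM in siPcgf5. The groups did not overlap, but the log2 fold change of 0.54 (SE 0.22) had an adjusted p = 1 (unadjusted 0.03617, edgeR). Of all 16980 genes, 2452 had both siPcgf5 morula libraries above both siControl morula libraries and 2882 had them below. The difference between the 2 stage effects was 0.88 for H2afx (SE 0.32, adjusted p = 0.966, edgeR). In that test of the difference 0 of 63 histone genes passed in edgeR, as did 0% of all genes, with 1 at an unadjusted p below 0.05 (4.96% of all genes) and 0 by DESeq2 or limma. Over all genes the same difference was called higher for 18 and lower for 14 by DESeq2, and for 0 and 1 by limma. None of the 3 supply lists had a called gene in either knockdown comparison by edgeR.

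Deletion at the Pcgf5 MT2C_Mm element likewise left no histone gene past the edgeR test. Of 29 histone genes tested at the 4-cell stage, 0 passed in Homo KO against WT, 0 in Hetero KO against WT and 0 in Homo KO against Hetero KO, and 0% of all genes passed in each. Unadjusted p fell below 0.05 for 4 of 29 in Homo KO against WT, 13.8%, against 12.4% of all genes. In Hetero KO against WT it did so for 0 of 29 against 4.76%, and in Homo KO against Hetero KO for 3 of 29, 10.3%, against 8.22%. The median log2 fold change of the histone genes was -0.30 in Homo KO and -0.25 in Hetero KO against WT, with 0.02 and 0 over all genes. Limma called 0 in each comparison, and DESeq2 called 1 (H2afj in Homo KO against WT) and 0 in the other comparisons. Over all 13766 genes DESeq2 called 237 higher and 96 lower in Homo KO against WT. It called 6 higher and 1 lower in Hetero KO against WT, and 89 higher and 22 lower in Homo KO against Hetero KO. Limma called 0 of all genes in each.

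H2afj, a replication-independent H2A variant, was at 73.8 and 62 TPM in WT, 79.5, 75.1 and 80.7 TPM in Hetero KO and 124, 110 and 103 TPM in Homo KO. Every Homo KO library was above every WT and Hetero KO library. Of all 13766 genes in TMM-scaled CPM, 2078 had every Homo KO library above every WT library and 2108 had them below. Against Hetero KO these numbers were 1117 and 901. Homo KO minus WT was 0.75 on the log2 scale (SE 0.19, unadjusted p = 0.002525, adjusted p = 0.2365, edgeR), and DESeq2 gave 0.76 with an adjusted p = 0.01802. Against Hetero KO it was 0.54 (SE 0.17, adjusted p = 0.4976, edgeR), and DESeq2 gave an adjusted p = 0.1643. H2afz was at 4119 and 3075 TPM in WT, 3319 to 4209 TPM in Hetero KO and 4266 to 5721 TPM in Homo KO, with a log2 fold change against WT of 0.45 (SE 0.17, adjusted p = 0.3431, edgeR). H3f3b was at 2996 and 2975 TPM in WT and 1919 to 2573 TPM in Homo KO, with -0.40 (SE 0.18, adjusted p = 0.3963, edgeR). Hist1h2bc, an H2B copy, was at 6.02 and 0.84 TPM in WT, 1.79 to 8.54 TPM in Hetero KO and 9.74, 50 and 11.9 TPM in Homo KO, where replicate 2 stood far above the others (log2 2.88, SE 1.07, adjusted p = 0.3305, edgeR). Summed markers of other cells were also higher in the Homo KO libraries: blood and immune markers summed to 188 and 69.3 TPM in WT, 68.1 to 182 TPM in Hetero KO and 214 to 319 TPM in Homo KO, and cumulus and granulosa markers to 2.39 and 1.28, 1.39 to 1.98 and 4.95 to 14.1 TPM. The blood sums were mostly of Hba-a2, at 185 and 64.4 TPM in WT and 206 to 305 TPM in Homo KO. Tnfaip6, of the cumulus list, was at 1.7 and 0.62 TPM in WT and 2.02 to 12.1 TPM in Homo KO. Lyz2, of the blood list, was at 1.1 and 0 TPM in WT, 0.56 to 1.62 TPM in Hetero KO and 5.14 to 7.14 TPM in Homo KO. Cd68 was at 2.61 and 2.51 TPM in WT and 3.14 to 8.07 TPM in Homo KO, but at 4.01 to 11.6 TPM in Hetero KO. Hba-a1 overlapped between the groups, and Hbb-bs and Hbb-bt were at 0. The part of these markers in the H2afj values was not tested. Late 2-cell genes summed to 318 and 23.4 TPM in WT, 67.8 to 187 TPM in Hetero KO and 299 to 425 TPM in Homo KO, so WT and Homo KO overlapped.

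H1foo, the cluster H2A pair and H3f3a showed smaller differences in the KO comparison. H1foo was at 28.2 and 14 TPM in WT, 28.3, 17.2 and 11.2 TPM in Hetero KO and 13.8, 13 and 27.1 TPM in Homo KO, so the 3 groups overlap. Its log2 fold change against WT was -0.19 (SE 0.46) in Homo KO and -0.15 (SE 0.46) in Hetero KO. Hist1h2ap was at -0.17 (SE 0.25) and -0.25 (SE 0.25), Hist1h2ao at 0.08 (SE 0.28) and -0.35 (SE 0.28), and H3f3a at -0.01 (SE 0.16) and -0.18 (SE 0.16) in Homo KO and Hetero KO against WT. The WT libraries are shared by these comparisons. Differences within these errors were not detectable with 2 or 3 libraries a group.

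**Figure D5:**
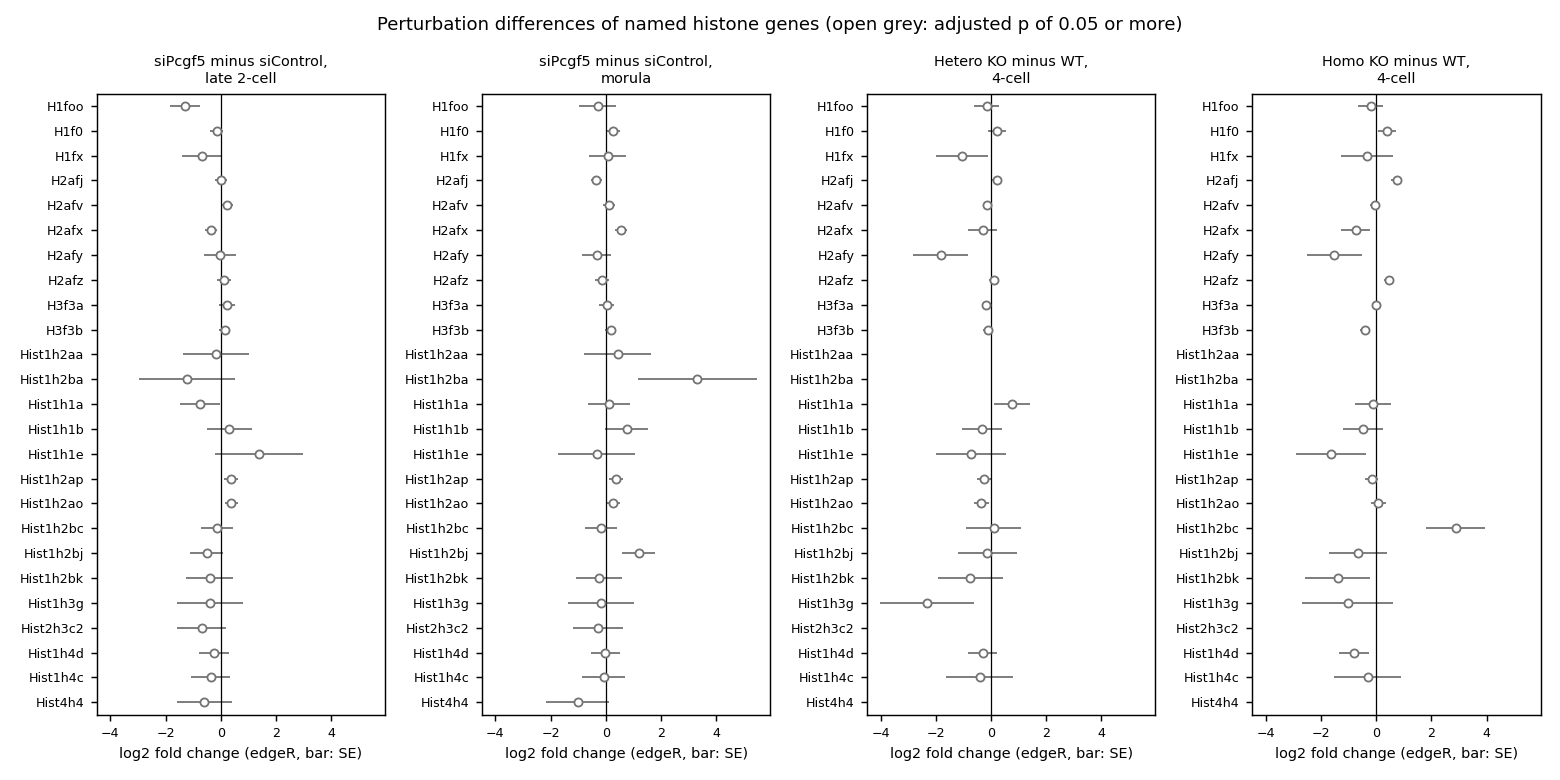
Log2 fold changes (x axis, edgeR, bars are SE) of the 25 named histone genes (rows) in siPcgf5 against siControl at each stage and in Hetero KO and Homo KO against WT (panels). Open grey points have an adjusted p of 0.05 or more, and all points shown are open. H2afj in Homo KO, at 0.75, is the point farthest from 0 in units of its SE.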

How the data were processed

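Gene tables of 16 RNA libraries were analysed, and 4 chromatin libraries (H2AK119ub1) were not analysed here. The deposited expected counts and deposited TPM values were made by the authors with RSEM 1.3.3 and STAR 2.7.10 on mm10, tools and build named in the submitters' processing notes. Expected counts were rounded to whole numbers (6.50% were not whole). Levels are the deposited TPM, or CPM scaled by TMM.

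Differences were tested with edgeR 4.0.16 in R 4.3.3 (quasi-likelihood, TMM, filterByExpr with a minimum count of 10, Benjamini-Hochberg adjustment over all genes tested, threshold 0.05). The 8 knockdown libraries were fitted together (16980 genes), as were the 8 at the 4-cell stage (13766 genes). All 16 (16669 genes) were fitted for comparisons of the 4-cell stage with other stages. The fit was tested on simulated data. Alternatives were DESeq2 1.42.0, its size factors, limma 3.58.1 on log2(TPM + 1), no filter, a replicate block, only the groups compared, and each library left out.

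The 28 genes named are H1foo, the variants and germline-linked genes with a mean of at least 1 TPM, and the 3 cluster copies of each family with the highest mean TPM. A fixed list of supply genes was named too. Others are said to be named after their values were seen. Members and gene lists were chosen with earlier results of these data known. Depth was 14310634 to 55620137 summed expected counts per library.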

Additional observations from a re-analysis of the deposited data

How the results depend on the processing

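Of 58 named differences called by edgeR, 26 kept their call under every alternative and every library left out. Limma on log2(TPM + 1) called 33 histone genes in place of 21 between siControl late 2-cell and siControl morula, and 25 in place of 15 between siControl late 2-cell and WT 4-cell. With only the groups compared, the latter count was 7. DESeq2 called 1 in Homo KO against WT, where edgeR called 0. Leaving out 1 library gave 12 to 19, 5 to 16 and 7 to 13 calls in the 3 stage comparisons (siControl late 2-cell to morula, late 2-cell to WT 4-cell, WT 4-cell to morula), and 0 in each perturbation. Directions turned for H1f0 (-0.037) and H3f3a (-0.12) with limma between siControl late 2-cell and morula, as they did for H2afz (-0.76), H3f3b (-0.86) and H2afv (-0.62), which edgeR did not call. The value of H1foo in siPcgf5 late 2-cell embryos ran from -1.98 to 0.042 over the libraries left out, and turned without siControl late 2-cell replicate 1. The cause was not tested.

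With the replicate number as a replicate block, the counts were 18, 12 and 12 in the 3 stage comparisons and 0 in the perturbations. Counts over all genes were not set beside those of the block, of the groups compared alone or of the libraries left out. Such counts do not tell a change among histone genes from a change over all genes. Same-numbered libraries did not deviate together (correlations from -0.0378 to 0.00701 in the knockdown and from -0.129 to 0.168 at the 4-cell stage). With 2 or 3 libraries a group, these correlations cannot tell whether same-numbered libraries shared a culture or a batch. Groups of 2 or 3 libraries, near-identical copies and polyadenylated RNA limit what can be read of the cluster copies.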
